A study of Homo sapiens with 16 samples.

Results

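BJAB is a human B cell line that grew from a lymphoma free of Epstein-Barr virus. The experiment set BJAB cells exposed for 4 hours to antibodies against IgM at 10 µg/ml and against CD40 at 4 µg/ml beside untreated BJAB cells. It comprised 2 stimulated and 2 untreated libraries, 4 of the 16 RNA sequencing libraries of the series, which were made with the SmartSeq2 protocol from 4 immune cell lines, each untreated or given an immune ligand. The libraries were taken by their labels, and genes with at least 1 TPM (a level scaled to transcript length and to a fixed sum per library) in at least 2 of the 4 were tested, which left 10888 of the 27311 listed genes. Both BJAB groups are labelled as wild type, and the stimulated cells are compared with untreated cells, not with cells given a control antibody. All 4 libraries come from 1 line, and no label says whether the 2 libraries of a group came from separate cultures. The p-values below therefore rest on a spread between libraries that may be technical. That spread was estimated for each gene over all 16 libraries, those of the other lines included, with a variance factor for every group.

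Antibodies to IgM cross-link the B cell receptor, which is built of surface immunoglobulin and the signalling chains CD79A and CD79B. Kinases of the SRC and SYK families pass its signal on to calcium, MAP kinase and NF-kB pathways, and immediate-early transcription factors are among the first genes to respond. CD40 is a receptor of the TNF receptor family through which T helper cells act on B cells. It recruits TRAF adaptors with the ubiquitin ligases BIRC2 and BIRC3 and feeds both branches of NF-kB. Together these inputs are known to make B cells express survival genes, activation receptors, chemokines and receptors that guide them within lymphoid tissue. Genes are named below by size of change or by level within a list, and those that were picked after their values were seen are listed with the processing.

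The libraries held 7853748 and 8170899 reads for stimulated cells, and 6281960 and 6789276 reads for untreated cells, as worked back from the size of 1 read in each TPM column. CD79A, a defining B cell gene, had 284 and 1305 TPM in stimulated cells, against 1514 and 1729 TPM in untreated cells, and of 24 B lineage markers 21 were tested. Of 24 T and NK lineage markers 9 were listed at 0 in all 4 libraries, CD8A and CD5 among them, and likewise 9 of 24 myeloid markers, MPO and CSF3R among them. The summed level of the T and NK markers was 109.9 and 94.2 TPM in stimulated cells, against 115.8 and 110.6 TPM in untreated cells, most of it LCK, a SRC family kinase. Genes of the immunoglobulin heavy chain constant region and the mitochondrial genome were not analysed here.

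The 2 stimulated libraries stood apart from each other. The SD over genes of the log2 difference between the libraries of a group was 1.06 in stimulated and 0.41 in untreated BJAB cells, where levels are log2(TPM + 1) throughout. In the first stimulated library the level fell away with the GC content of the transcript. The median log2 difference from the mean of the untreated libraries was 0.19 in the fifth of genes with the least GC and -1.63 in the fifth with the most. The same medians in the second stimulated library were 0.00 and -0.31. Each result is therefore given library by library, and the fit was repeated with a GC correction and without the first stimulated library. The latter fit gives the lone stimulated library the spread of the untreated pair, so its calls do not measure the part of this trend. Its counts for gene lists are to be read against its shares over all tested genes, given below.

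**Figure D1:**
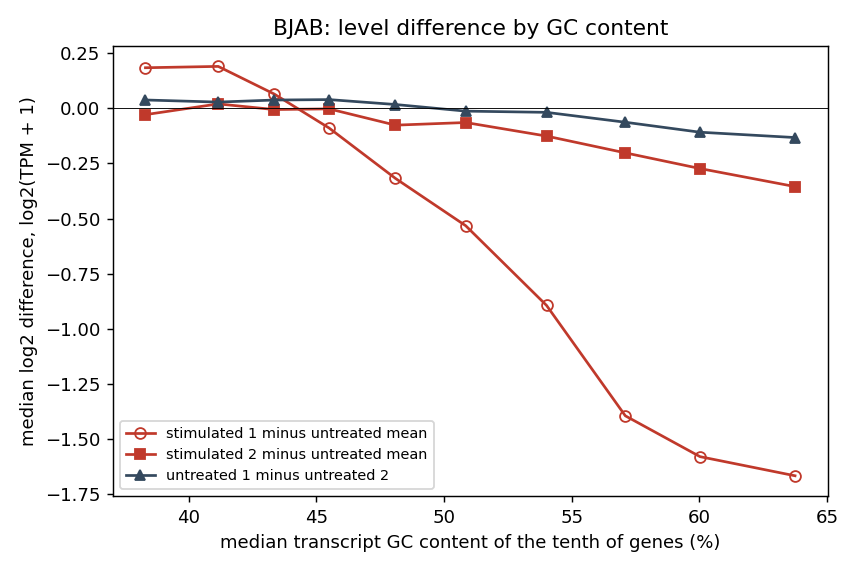
Median difference in log2(TPM + 1) over 10 equal bins of the tested genes, ordered by transcript GC content in percent, for each stimulated BJAB library minus the untreated mean and for the first minus the second untreated library. The line of the first stimulated library runs down to -1.67 in the bin with the most GC, where that of the second stimulated library is at -0.35 and that of the untreated pair at -0.13.

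At an adjusted p under 0.05, 52 genes rose and 47 fell in stimulated cells, which is 0.478% and 0.432% of the genes tested and 0.909% in all (limma on log2(TPM + 1), Benjamini-Hochberg adjustment). Counts of calls in the gene lists below are to be read against these shares, at which a short list would hold few or no calls. Among the genes that rose were chemokines, RGS proteins, SLAM family receptors, CCR7, IL10, immediate-early factors and inhibitors of apoptosis and NF-kB. Among those that fell were TXNIP, DDIT4, CYTH4, PTAFR, SLA, CSK, RAC2 and SPI1. The log2 changes of the 52 ran between 1.71 and 8.62, with a median of 3.17, and those of the 47 ran between -5.78 and -1.19, with a median of -2.60. A TPM is a share of a library, so less RNA of a gene per cell and fewer cells with that RNA cannot be told apart.

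In all 99 genes both stimulated libraries lay on the same side of both untreated libraries, which holds by itself for 17.1% of all tested genes upward and 39% downward. The median log2 change of all tested genes was -0.30, with -0.47 in the first stimulated library and -0.11 in the second, and it became -0.03 after median-of-ratios scaling, which called 68 genes higher and 33 lower. The 2 directions differed in GC content, with a median of 47.0% in the genes that rose and 56.8% in those that fell, against 49.4% over all tested genes. The second stimulated library was nearer to the untreated cells than the first in 43 of the 47 genes that fell and in 26 of the 52 that rose. After the GC correction 49 of the 52 rises and 35 of the 47 falls were still called. Leaving out the first stimulated library was no further check on the 99, because in each of them the second also lay beyond both untreated libraries. Count models of the recovered reads by voom called 42 of the 52 rises and 12 of the 47 falls. Of 36 called genes chosen by the naming rule, 8 were not called by voom, which were NFKBIA among the rises and ABI3, TXNIP, MMP11, NAPSB, DLL3, SLAMF6 and SPI1 among the falls. DLL3 and SPI1 were also not called after the GC correction or median-of-ratios scaling. Other settings lost more of the 36, with 29 not called at a pseudocount of 0.1 and all 36 not called with the BJAB libraries alone.

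**Figure D2:**
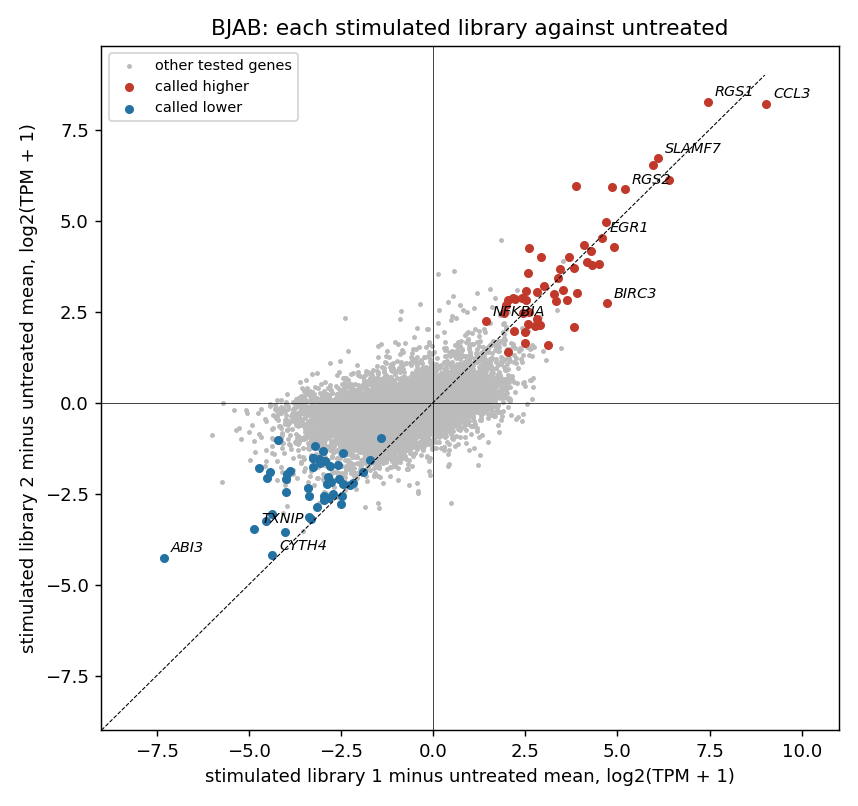
Difference of each tested gene from the untreated mean, in log2(TPM + 1), in the first stimulated BJAB library (horizontal) and in the second (vertical); the dashed line marks equal differences. The 52 genes called higher (red) lie along the line, and most of the 47 called lower (blue) lie above it, nearer to 0 in the second library.

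The number of calls changed widely when a BJAB library was left out. Leaving out either untreated library left almost no gene called, and leaving out either stimulated library gave many more calls. In these fits the lone library of a group was given the spread of the other BJAB group, which is wider for a lone untreated library and narrower for a lone stimulated one. The part of this assumption in the counts was not tested. RGS1 was called in each of these 4 fits, and CCR7 also without the first untreated library. The 4 BJAB libraries on their own gave 0 calls with limma, with 1507 genes at an unadjusted p under 0.05, against 1764 (16.2%) in the fit reported here.

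Secreted signals were among the largest rises. CCL3, a chemokine that draws T cells and myeloid cells, had 615 and 350.0 TPM in stimulated cells, against 0 and 0.395 TPM in untreated cells. Its neighbour CCL4, a chemokine close to it in sequence, had 83.0 and 68.3 TPM in stimulated cells, against 0 and 0 TPM in untreated cells. IL10, a cytokine that restrains myeloid cells and acts as a growth and differentiation factor for B cells, had 476 and 562 TPM in stimulated cells, against 29.6 and 24.5 TPM in untreated cells. In all 3 genes both stimulated libraries were far above both untreated ones, which for CCL4 were listed at 0, so no fold change is given for it. The log2 change was 8.62 ± 1.22 (SE) for CCL3, with an adjusted p of 0.00371 by limma, and 4.21 ± 0.54 for IL10 (adjusted p = 0.00239), while the adjusted p of CCL4 was 0.00106. Only uniquely aligned reads were counted, and both chemokine genes have near copies, so their levels are uncertain and may be low. VEGFA, the vascular growth factor, also rose, with 18.8 and 9.63 TPM in stimulated cells, against 0 and 0.749 TPM in untreated cells (log2 change 3.46 ± 0.64, adjusted p = 0.0202).

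These 4 were the members that rose among 11 tested of 31 listed cytokines and chemokines, and 0 fell. The median log2 change of the 11 was 0.57, with 0.95 in the first stimulated library and 1.06 in the second. TNF, which had 1.36 and 5.72 TPM in stimulated cells, against 1.63 and 2.65 TPM in untreated cells, did not pass the test (log2 change 0.36 ± 0.61, adjusted p = 0.831), and its groups overlapped. LTA and LTB, the lymphotoxins of B and T cells, stayed between 1.46 and 6.84 TPM in all 4 libraries. The levels of TNF, LTA and LTB may be understated. In the first stimulated library they had 69, 64 and 164 reads, whereas CD69 had 187 reads at 28.6 TPM. The median transcript lengths of TNF and CD69 are 1676 and 1348 bases, and the lengths behind the TPM are not stated. Near the pseudocount of 1, understated levels would also make the log2 changes smaller. Another 15 of the 31 were listed at 0 in all 4 libraries, among them IL6, IL2, CCL20 and CXCL10.

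Receptors and regulators of B cell positioning formed a second group. RGS1, a GTPase-activating protein that shortens signals from chemokine receptors, had 441 and 777 TPM in stimulated cells, against 0.975 and 2.24 TPM in untreated cells. RGS2, which acts on the Gq class of G proteins, reached 2315 and 3677 TPM in stimulated cells, against 61.3 and 62.8 TPM in untreated cells. CCR7, the receptor for CCL19 and CCL21 that leads activated B cells to the T cell zone, had 96.7 and 145 TPM in stimulated cells, against 1.01 and 0.233 TPM in untreated cells. RGS1 and CCR7 were close to 0 in untreated cells and RGS2 was not, and the groups lay far apart in each. The log2 change was 7.86 ± 0.57 for RGS1 (adjusted p = 2.8e-05), 5.53 ± 1.12 for RGS2 (adjusted p = 0.0358) and 6.25 ± 0.61 for CCR7 (adjusted p = 0.000577, all by limma). They were the 3 that rose among 15 tested of 27 listed positioning receptors and RGS proteins, and 0 fell, with a median of -0.13, and without the first stimulated library 5 rose and 3 fell.

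RGS13, a germinal centre member of the family that is among the most abundant here, had 1592 and 871 TPM in stimulated cells, against 324 and 294 TPM in untreated cells. Both stimulated libraries were above both untreated ones, but the change of 1.93 ± 0.65 did not pass the test (adjusted p = 0.19). P2RY8, which confines germinal centre B cells, had 9.86 and 30.5 TPM in stimulated cells, against 88.3 and 92.1 TPM in untreated cells, and its change of -2.30 ± 0.50 missed the threshold (adjusted p = 0.052). S1PR2 had 114 and 267 TPM in stimulated cells, against 424 and 374 TPM in untreated cells and a change of -1.18 ± 0.53 (adjusted p = 0.297). CXCR5, the receptor for CXCL13, had 2.23 and 27.1 TPM in stimulated cells, against 38.7 and 39.2 TPM in untreated cells (change -2.07 ± 0.78, adjusted p = 0.222), so that the 2 stimulated libraries differed more from each other than the second did from the untreated cells.

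Among activation receptors the SLAM family moved in both directions. SLAMF7, a self-binding receptor best known from plasma cells and NK cells, had 767 and 1173 TPM in stimulated cells, against 10.0 and 10.4 TPM in untreated cells. LY9, which lies beside it on chromosome 1, had 611 and 1279 TPM in stimulated cells, against 23.2 and 17.6 TPM in untreated cells. SLAMF6, another member of the family, had 0.467 and 7.46 TPM in stimulated cells, against 34.0 and 27.7 TPM in untreated cells. SLAMF7 and LY9 were among the most abundant of all the genes that rose, while SLAMF6 was close to 0 in the first stimulated library and less far down in the second. The log2 change was 6.40 ± 0.80 for SLAMF7 (adjusted p = 0.00236), 5.38 ± 0.61 for LY9 (adjusted p = 0.00173) and -3.17 ± 0.62 for SLAMF6 (adjusted p = 0.0297, all by limma). SLAMF1 and CD48, of the same family, were at 4.25 to 8.48 TPM in every library and did not pass the test.

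CD69, an early activation antigen that keeps lymphocytes from leaving tissue, had 28.6 and 26.0 TPM in stimulated cells, against 1.02 and 1.12 TPM in untreated cells and rose by 3.77 ± 0.58 on the log2 scale (adjusted p = 0.00605). Its stimulated libraries were close to each other and well above the untreated ones. CD83, another activation antigen, had 43.0 and 89.5 TPM in stimulated cells, against 14.6 and 12.5 TPM in untreated cells, a change of 2.12 ± 0.52 that missed the threshold (adjusted p = 0.0836). CD86, the costimulatory ligand of CD28, lay lower, with 5.87 and 7.93 TPM in stimulated cells, against 23.2 and 24.2 TPM in untreated cells and a change of -1.65 ± 0.49 (adjusted p = 0.158). Of 23 tested activation and costimulation receptors, 2 rose and 1 fell, with a median of -0.66, and without the first stimulated library 5 rose and 5 fell.

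**Figure D3:**
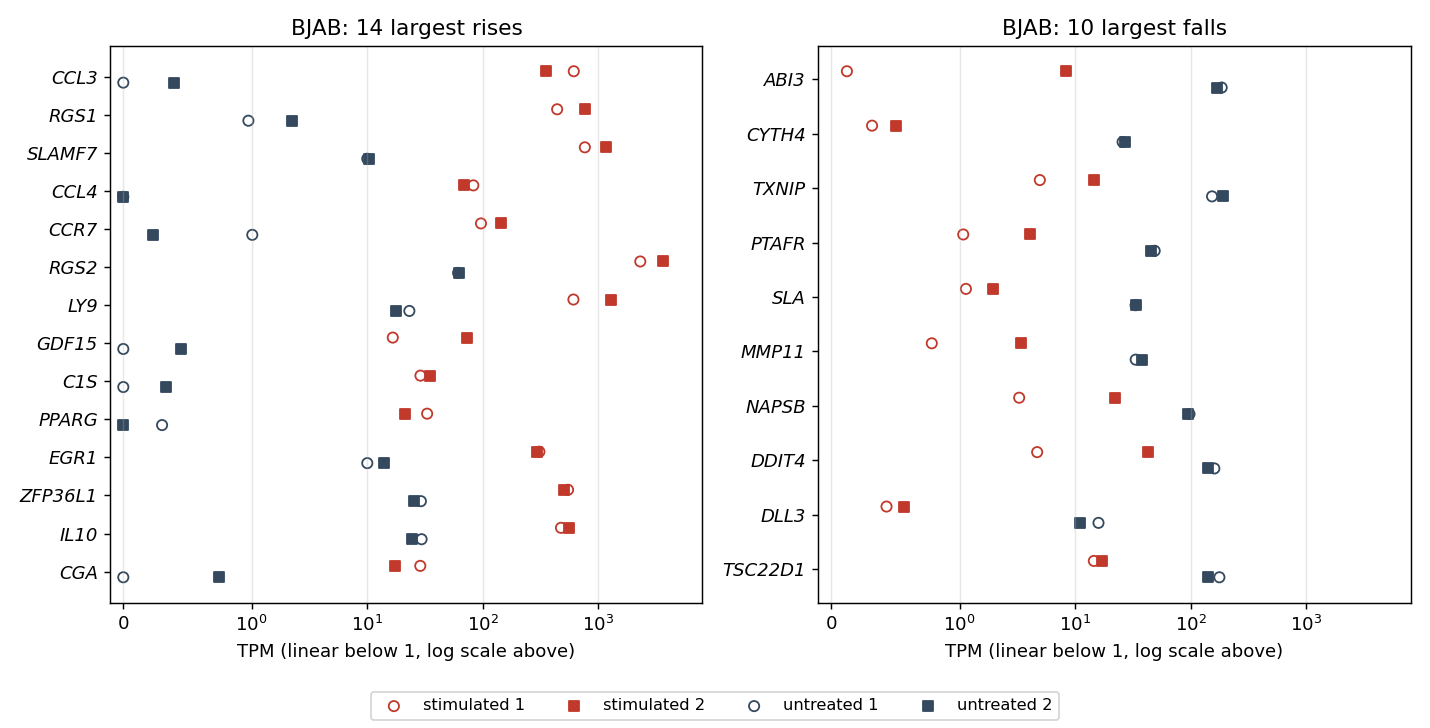
Level of the 14 largest rises (left) and the 10 largest falls (right) past the threshold in each BJAB library, in TPM on an axis that is linear below 1 and logarithmic above. Red symbols are stimulated and dark symbols untreated libraries, open for the first and filled for the second; in every gene the red and dark symbols do not overlap, with RGS2 up at 2315 and 3677 TPM and ABI3 down at 0.121 and 8.30 TPM in stimulated cells.

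Of the immediate-early transcription factors, the first genes switched on by receptor signals, 13 of 25 listed were tested, of which 3 rose and 0 fell. EGR1, a zinc finger factor induced through the MAP kinase pathway, had 309.8 and 296 TPM in stimulated cells, against 10.0 and 14.03 TPM in untreated cells. KLF6 had 81.4 and 92.6 TPM in stimulated cells, against 8.87 and 9.50 TPM in untreated cells, and KLF10, a factor also induced by TGF-beta, had 107 and 187 TPM in stimulated cells, against 27.8 and 23.7 TPM in untreated cells. The 2 stimulated libraries were nearly level for EGR1 and KLF6, and in all 3 they lay clear of the untreated libraries. The log2 change was 4.56 ± 0.62 for EGR1 (adjusted p = 0.00312), 3.11 ± 0.45 for KLF6 (adjusted p = 0.00448) and 2.42 ± 0.49 for KLF10 (adjusted p = 0.0363, limma).

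The median change of the 13 was 1.67, but it was 0.54 in the first stimulated library and 2.54 in the second, and the median GC content of these genes was 59.6%. Without the first stimulated library 8 of the 13 rose and 1 fell. IER2, an immediate-early gene of unclear biochemical function, had 76.6 and 815 TPM in stimulated cells, against 54.1 and 89.7 TPM in untreated cells. FOS, a subunit of AP-1, had 10.8 and 38.3 TPM in stimulated cells, against 6.49 and 5.10 TPM in untreated cells, and NAB2, a corepressor of EGR proteins, had 9.36 and 62.8 TPM in stimulated cells, against 1.77 and 1.97 TPM in untreated cells. The second stimulated library was far above both untreated ones in these 3 genes, while the first was less far above them for FOS and NAB2 and between them for IER2. The changes of 1.83 ± 0.77, 1.67 ± 0.83 and 3.17 ± 0.74 did not pass the test (adjusted p = 0.269, 0.34 and 0.07, limma). ATF3 had 12.0 and 15.7 TPM in stimulated cells, against 0.269 and 0 TPM in untreated cells, a change of 3.71 ± 0.85 just short of the threshold (adjusted p = 0.0663). JUN was listed at 0 in all 4 libraries, and EGR2 and EGR3 were too low to be tested.

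MYC, the growth-promoting transcription factor that B cell receptor signals are known to induce in resting B cells, had lower values here. It had 33.6 and 119 TPM in stimulated cells, against 218 and 227 TPM in untreated cells, and the first stimulated library was lower than the second. The change of -1.79 ± 0.51 did not pass the test (adjusted p = 0.151). It was -0.90 without the first stimulated library, where it did (adjusted p = 0.0252). Of 12 tested members of the MYC network 0 rose and 0 fell, with a median of -0.61. MAX, the partner of MYC on DNA, had 48.9 and 88.4 TPM in stimulated cells, against 92.3 and 88.9 TPM in untreated cells, so that the first stimulated library alone was well apart from the rest (change -0.46 ± 0.38, adjusted p = 0.596).

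MAP kinase phosphatases and feedback genes, which switch the pathway off, had a median change of 0.26 in the first and 0.81 in the second stimulated library. Of 14 tested members 0 passed in either direction, and without the first stimulated library 6 rose and 0 fell. DUSP2, a nuclear phosphatase of ERK, had 96.1 and 814 TPM in stimulated cells, against 60.3 and 70.3 TPM in untreated cells. DUSP10, which acts on p38 and JNK, had 27.7 and 49.8 TPM in stimulated cells, against 3.25 and 7.23 TPM in untreated cells. DUSP6, the cytoplasmic phosphatase of ERK, had 3.62 and 8.89 TPM in stimulated cells, against 19.2 and 17.6 TPM in untreated cells. The first 2 were higher in both stimulated libraries and the last lower in both, and the changes of 2.09 ± 0.87, 2.69 ± 0.67 and -1.52 ± 0.64 did not pass the test (adjusted p = 0.265, 0.0866 and 0.271). The groups of DUSP14 overlapped, with 39.6 and 123 TPM in stimulated cells, against 96.8 and 76.3 TPM in untreated cells (change -0.29 ± 0.43, adjusted p = 0.795).

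Subunits, inhibitors and feedback genes of NF-kB gave 2 rises and 0 falls among 17 tested of 23 listed. BIRC3, a ubiquitin ligase that sits in the CD40 receptor complex and is itself a target of NF-kB, had 301 and 75.8 TPM in stimulated cells, against 10.0 and 11.001 TPM in untreated cells. NFKBIA, the inhibitor that holds NF-kB in the cytoplasm and that NF-kB induces, had 84.5 and 149.8 TPM in stimulated cells, against 29.5 and 32.3 TPM in untreated cells. The first stimulated library was the higher one for BIRC3 and the lower one for NFKBIA, and neither gene's groups overlapped. BIRC3 changed by 3.73 ± 0.56 (adjusted p = 0.00554) and NFKBIA by 1.83 ± 0.37 (adjusted p = 0.0358).

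TNFAIP3, the deubiquitinating enzyme A20, had 1.57 and 7.79 TPM in stimulated cells, against 0.722 and 0.928 TPM in untreated cells, a change of 1.38 ± 0.75 that did not pass (adjusted p = 0.386). NFKB1, a subunit of the classical pathway, had 29.4 and 15.2 TPM in stimulated cells, against 5.18 and 4.47 TPM in untreated cells (change 1.93 ± 0.59, adjusted p = 0.164), and both stimulated libraries were above both untreated ones. RELB, the subunit of the CD40-driven branch, had 3.04 and 28.7 TPM in stimulated cells, against 16.2 and 15.1 TPM in untreated cells, with the stimulated libraries on either side of the untreated ones. Without the first stimulated library 4 of the 17 rose and 2 fell. The median of the 17 was -0.37, with -0.83 in the first stimulated library and 0.39 in the second. Over all tested genes these library medians were -0.47 and -0.11.

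The receptors themselves did not pass the test. CD40 had 38.0 and 71.2 TPM in stimulated cells, against 39.2 and 43.2 TPM in untreated cells, so its groups overlapped (change 0.33 ± 0.60, adjusted p = 0.845). CD79B had 321 and 1106 TPM in stimulated cells, against 3005 and 3082 TPM in untreated cells, and CD79A, given above, was also lower in both stimulated libraries. Their changes of -2.35 ± 1.04 and -1.41 ± 1.07 did not pass (adjusted p = 0.291 and 0.558). Of 19 tested CD40 pathway components BIRC3 alone rose and 0 fell, and of 31 tested B cell receptor and proximal signalling genes 0 rose and 0 fell, with 1 and 2 without the first stimulated library and a median of -0.74. BLK, a SRC family kinase of B cells, had 0.686 and 58.0 TPM in stimulated cells, against 100.4 and 115 TPM in untreated cells, which places the first stimulated library far below the other 3 (change -3.44 ± 0.85, adjusted p = 0.0836). CSK, the kinase that holds SRC family kinases in their inactive form, was outside this list and fell, with 35.6 and 147 TPM in stimulated cells, against 326 and 349 TPM in untreated cells (change -2.20 ± 0.43, adjusted p = 0.0314).

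Survival and mRNA decay genes gave 1 rise each. BCL2A1, an inhibitor of apoptosis of the BCL2 family and a known NF-kB target, had 321 and 239 TPM in stimulated cells, against 24.3 and 29.7 TPM in untreated cells. ZFP36L1, which binds AU-rich mRNAs and brings about their decay, had 549 and 505 TPM in stimulated cells, against 29.2 and 25.3 TPM in untreated cells. In both genes the stimulated libraries were close to each other and far above the untreated ones, with changes of 3.32 ± 0.52 (adjusted p = 0.00672) and 4.23 ± 0.61 (adjusted p = 0.00413). Of 18 tested BCL2 family and apoptosis genes BCL2A1 was the only call, with 0 falls and a median of -0.21 (3 rises and 1 fall without the first stimulated library), and of 15 tested mRNA decay factors ZFP36L1 was the only one, with 0 falls and a median of -0.28.

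Promoter windows of RefSeq (build GRCh38.p14, 250 bases before to 50 after the gene start) were matched for 36 of the 52 genes that rose, 35 of the 47 that fell and 8783 of the 10888 tested. Among those that fell, MGAT3 was given the window of MOGAT3, a different gene, through a synonym, and that window held no match. Windows are shown for 5 genes picked by hand among those that rose with a match, as examples of the kappaB, CArG and cyclic AMP motifs and of windows with paired matches. GDF15, HES1, BACH2 and DDIT3, also described here, have matches too and are not shown. Capitals mark the motif matches, which are the CArG box bound by SRF in EGR1, the kappaB consensus in BIRC3, NFKBIA and RGS1, and the cyclic AMP response element TGACGTCA in CGA. Positions count from the gene start. EGR1 has CArG boxes at -105 and -83 (chr5:138465229-138465528, plus strand), BIRC3 has kappaB matches at -199 and -135 (chr11:102317234-102317533, plus strand), NFKBIA has 1 at -81 (chr14:35404700-35404999, minus strand), RGS1 has 1 at -106 (chr1:192575523-192575822, plus strand), and CGA has response elements at -142 and -124 (chr6:87095057-87095356, minus strand).
EGR1: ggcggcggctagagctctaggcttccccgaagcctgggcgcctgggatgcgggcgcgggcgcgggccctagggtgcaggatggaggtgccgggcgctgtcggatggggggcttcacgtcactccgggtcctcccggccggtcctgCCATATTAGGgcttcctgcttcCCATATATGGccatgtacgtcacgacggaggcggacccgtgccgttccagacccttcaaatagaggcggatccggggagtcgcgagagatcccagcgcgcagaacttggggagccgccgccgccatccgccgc
BIRC3: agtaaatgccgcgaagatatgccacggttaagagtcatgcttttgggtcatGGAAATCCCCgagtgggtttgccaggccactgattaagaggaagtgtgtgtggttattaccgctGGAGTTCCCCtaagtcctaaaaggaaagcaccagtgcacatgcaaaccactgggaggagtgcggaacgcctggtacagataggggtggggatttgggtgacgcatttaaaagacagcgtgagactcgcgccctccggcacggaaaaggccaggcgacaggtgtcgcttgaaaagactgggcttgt
NFKBIA: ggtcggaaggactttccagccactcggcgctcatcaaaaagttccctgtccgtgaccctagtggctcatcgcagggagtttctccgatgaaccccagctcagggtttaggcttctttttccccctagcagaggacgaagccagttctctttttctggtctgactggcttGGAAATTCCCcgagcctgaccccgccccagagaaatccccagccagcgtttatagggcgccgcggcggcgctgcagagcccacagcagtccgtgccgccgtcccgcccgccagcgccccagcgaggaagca
RGS1: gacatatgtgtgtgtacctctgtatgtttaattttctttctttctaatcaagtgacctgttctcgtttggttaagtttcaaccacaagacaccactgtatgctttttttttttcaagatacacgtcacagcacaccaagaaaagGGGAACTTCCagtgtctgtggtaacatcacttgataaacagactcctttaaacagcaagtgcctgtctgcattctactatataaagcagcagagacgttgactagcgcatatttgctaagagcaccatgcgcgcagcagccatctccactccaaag
CGA: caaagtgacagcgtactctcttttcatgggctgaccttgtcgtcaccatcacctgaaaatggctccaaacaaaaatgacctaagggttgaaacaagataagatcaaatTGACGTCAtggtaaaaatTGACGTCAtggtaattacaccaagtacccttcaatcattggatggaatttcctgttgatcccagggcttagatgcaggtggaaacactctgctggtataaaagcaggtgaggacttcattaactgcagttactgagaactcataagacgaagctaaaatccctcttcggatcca

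The motifs also stood in windows of genes that did not rise. Searched on both strands, the kappaB consensus was in 6 of the 36 windows of genes that rose (16.7%) and in 9 of the 35 of genes that fell (25.7%), against 12.7% of tested genes and 10.8% of all 27305 windows. The CArG box was in 3 of 36 (8.33%) and 0 of 35, against 1.02% of tested genes and 1.29% of all windows. TGACGTCA was in 4 of 36 (11.1%) and 1 of 35 (2.86%), against 3.59% and 1.98%. The AP-1 site TGANTCA was in 4 of 36 (11.1%) and 1 of 35 (2.86%), against 4.16% and 7.76%, and among the 99 called genes no match overlapped another. The EGR site GCGTGGGCG was in 0 of either group, against 1.31% and 0.784%. A match describes the letters of a window and is not a bound site, and the absence of one says nothing about a factor.

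Several of the largest rises lay outside the pathways above. PPARG, a nuclear receptor of lipid metabolism, had 33.1 and 21.1 TPM in stimulated cells, against 0.302 and 0 TPM in untreated cells. GDF15, a secreted TGF-beta family protein of stressed cells, had 16.7 and 73.6 TPM in stimulated cells, against 0 and 0.449 TPM in untreated cells. C1S, a protease of the first complement component, had 28.9 and 35.3 TPM in stimulated cells, against 0 and 0.334 TPM in untreated cells. These genes were at or near 0 in untreated cells, with changes of 4.59 ± 0.58, 4.91 ± 0.68 and 4.83 ± 0.77 (adjusted p = 0.00239, 0.00316 and 0.00745), sizes that depend on the pseudocount. CGA, the alpha subunit shared by glycoprotein hormones, had 28.8 and 17.6 TPM in stimulated cells, against 0 and 0.745 TPM in untreated cells (change 4.16 ± 0.57, adjusted p = 0.00312).

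DDIT3, the stress-induced factor CHOP, rose, with 527 and 298 TPM in stimulated cells, against 48.8 and 35.5 TPM in untreated cells, a change of 3.22 ± 0.59 (adjusted p = 0.0196). HLA-DMB, a subunit of the complex that loads peptides onto MHC class II, had 29.6 and 30.6 TPM in stimulated cells, against 2.05 and 1.80 TPM in untreated cells and rose by 3.41 ± 0.42 (adjusted p = 0.00218, limma). The level of HLA-DMB may be understated. It had 1293 reads at 29.6 TPM in the first stimulated library, where DDIT3 had 2424 reads at 527 TPM. Their median transcript lengths are 766 and 923 bases. The libraries of each group were almost level for HLA-DMB, while HLA-DMA, its partner subunit, had 17.9 and 7.55 TPM in stimulated cells, against 6.65 and 6.88 TPM in untreated cells and did not pass (change 0.71 ± 0.58, adjusted p = 0.584). BACH2, a repressor that delays plasma cell differentiation, had 5.74 and 4.73 TPM in stimulated cells, against 0.589 and 0.372 TPM in untreated cells and rose by 2.07 ± 0.44 (adjusted p = 0.045). Other genes that rose included SATB1, a chromatin organiser, HES1, a repressor downstream of Notch, MAML2, a coactivator of Notch, and MET, the receptor for hepatocyte growth factor. MET had 119 and 81.1 TPM in stimulated cells, against 13.0 and 9.05 TPM in untreated cells, and HES1 had 18.8 and 14.9 TPM in stimulated cells, against 0 and 0.215 TPM in untreated cells. SNORD99, a small nucleolar RNA gene, was called on 2 and 1 reads in stimulated cells against 0 in untreated cells.

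Genes of several roles fell. TXNIP, which binds thioredoxin and limits glucose uptake, had 4.94 and 14.6 TPM in stimulated cells, against 153 and 191 TPM in untreated cells. DDIT4, an inhibitor of mTORC1, had 4.69 and 42.5 TPM in stimulated cells, against 160.3 and 140.3 TPM in untreated cells. TSC22D1, a leucine zipper factor, had 14.5 and 17.1 TPM in stimulated cells, against 177 and 140.4 TPM in untreated cells. All 3 were well below the untreated cells in both stimulated libraries, DDIT4 much more so in the first. The changes were -4.16 ± 0.62 for TXNIP (adjusted p = 0.00473), -3.26 ± 0.58 for DDIT4 (adjusted p = 0.0155) and -3.24 ± 0.47 for TSC22D1 (adjusted p = 0.00437, limma). TXNIP was the only call among 17 tested FOXO-linked and quiescence genes, 0 of which rose, with a median of 0.04.

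Regulators of the cytoskeleton and of antigen receptor signals were among the falls. ABI3, of the Abl interactor family, had 0.121 and 8.30 TPM in stimulated cells, against 186 and 169 TPM in untreated cells. CYTH4, an exchange factor for ARF GTPases, had 0.317 and 0.501 TPM in stimulated cells, against 25.7 and 27.0 TPM in untreated cells. SLA, an adaptor that lowers antigen receptor signalling, had 1.13 and 1.94 TPM in stimulated cells, against 33.4 and 33.4 TPM in untreated cells. CYTH4 and SLA were almost as low in the second stimulated library as in the first, whereas ABI3 was less far down. The changes were -5.78 ± 1.13 for ABI3 (adjusted p = 0.0312), -4.28 ± 0.58 for CYTH4 (adjusted p = 0.00312) and -3.78 ± 0.46 for SLA (adjusted p = 0.00218). RAC2, a small GTPase of blood cells, had 42.6 and 145 TPM in stimulated cells, against 417 and 414 TPM in untreated cells and fell as well (change -2.38 ± 0.37, adjusted p = 0.00672). RAC2 and CYTH4 are neighbours on chromosome 22.

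PTAFR, the receptor for platelet-activating factor, had 1.07 and 4.04 TPM in stimulated cells, against 48.8 and 45.3 TPM in untreated cells (change -3.89 ± 0.47, adjusted p = 0.00218). MMP11, a secreted metalloprotease, had 0.783 and 3.41 TPM in stimulated cells, against 33.4 and 38.1 TPM in untreated cells (change -3.71 ± 0.50, adjusted p = 0.00312), and DLL3, an inhibitory Notch ligand, had 0.430 and 0.565 TPM in stimulated cells, against 15.9 and 11.1 TPM in untreated cells (change -3.26 ± 0.66, adjusted p = 0.0372). The groups lay apart in each, with the first stimulated library the lowest of the 4. NAPSB, a pseudogene of the napsin proteases, had 3.27 and 22.1 TPM in stimulated cells, against 97.7 and 95.4 TPM in untreated cells (change -3.30 ± 0.59, adjusted p = 0.0151, limma). Only uniquely aligned reads were counted and NAPSA is a close copy, so the level of NAPSB is uncertain and may be low. MIR4513, a microRNA gene, was called on 0 reads in stimulated cells against 1 and 1 in untreated cells.

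SPI1, the factor PU.1, had 0.910 and 6.70 TPM in stimulated cells, against 35.0 and 23.9 TPM in untreated cells, and was the 1 member to fall among 29 tested transcription factors of germinal centre, B and plasma cells (change -2.96 ± 0.64, adjusted p = 0.0486), where BACH2 was the 1 to rise. SPI1 was no longer called after the GC correction, after median-of-ratios or quantile scaling or in the voom model, and its transcript has 65.6% GC. The median of the 29 was -1.01, with -1.43 in the first stimulated library and -0.71 in the second, and without the first library 5 rose and 11 fell. BCL6, the germinal centre repressor, had 57.4 and 336 TPM in stimulated cells, against 502 and 450.5 TPM in untreated cells, and PRDM1, the plasma cell factor that opposes it, had 9.35 and 6.29 TPM in stimulated cells, against 1.14 and 0.699 TPM in untreated cells. BCL6 was lower and PRDM1 higher in both stimulated libraries, with changes of -1.76 ± 0.85 and 2.19 ± 0.49 that did not pass (adjusted p = 0.327 and 0.0622).

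Of the 21 tested B lineage markers 0 rose and 0 fell, with a median of -1.24 and 17 of 21 below both untreated libraries in both stimulated ones, against 39% of all tested genes. The median GC content of these markers was 56.3%, against 49.4% over all tested genes, and the part of the GC trend in this result was not tested for the list. Their summed level was 2506 and 5087 TPM in stimulated cells, against 7479 and 8102 TPM in untreated cells, and without the first stimulated library 1 rose and 9 fell. MS4A1, the antigen CD20, went the other way, with 574 and 511 TPM in stimulated cells, against 270.0 and 267 TPM in untreated cells (change 1.01 ± 0.42, adjusted p = 0.262). Of 10 tested plasma cell markers SLAMF7 rose and 0 fell, with a median of 0.04. JCHAIN, the joining chain of IgM and IgA, had 5839 and 3208 TPM in stimulated cells, against 3213 and 2876 TPM in untreated cells (change 0.51 ± 0.83, adjusted p = 0.824). Of 7 tested T and NK markers 0 rose and 0 fell, LCK at 91.7 and 75.6 TPM, against 64.9 and 58.9 TPM untreated (adjusted p = 0.819) and CD247, a chain of the T cell receptor complex, at 7.93 and 8.98 TPM, against 26.2 and 29.7 TPM untreated (adjusted p = 0.143), and of 8 tested myeloid markers SPI1 fell and 0 rose. With the GC correction or median-of-ratios scaling, 0 of these 8 myeloid markers fell.

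In 5 lists of metabolism, growth and housekeeping 0 genes rose and 0 fell, against 0.909% called of all tested genes. At that share lists of this size would hold few or no calls. They held 19 cholesterol synthesis genes (median 0.34), 40 ribosome biogenesis genes (median -0.09), 23 genes of glycolysis and nutrient transport (median -0.99), 36 of cell cycle and DNA replication (median -0.55) and 16 housekeeping genes (median -0.41). The 23 of glycolysis had a median of -1.64 in the first stimulated library and 0.03 in the second. GAPDH, for example, had 1546 and 5229 TPM in stimulated cells, against 6061 and 6449 TPM in untreated cells, and ACTB had 1858 and 7488 TPM in stimulated cells, against 8823 and 9165 TPM in untreated cells, so that in both genes the first stimulated library was far below the other 3 and the second much nearer to the untreated cells. TPI1, another glycolytic enzyme, had 1909.6 and 2998 TPM in stimulated cells, against 2636 and 2177 TPM in untreated cells, and its groups overlapped (change -0.00 ± 0.32, adjusted p = 1). NPM1 and NHP2, abundant nucleolar proteins, had changes of 0.13 ± 0.21 and 0.24 ± 0.36 (adjusted p = 0.82 and 0.804). Of the cell cycle genes, CCNB1, the mitotic cyclin, had 1128 and 634 TPM in stimulated cells, against 562 and 489 TPM in untreated cells, and RRM2, a subunit of ribonucleotide reductase, had 226 and 443 TPM in stimulated cells, against 543 and 554 TPM in untreated cells, with changes of 0.69 ± 0.34 and -0.79 ± 0.40 (adjusted p = 0.332 and 0.355). The cholesterol genes differed less between the 2 libraries, with medians of 0.34 and 0.40, and 7 of them rose and 0 fell without the first stimulated library. In the same setting 7 ribosome biogenesis genes rose and 0 fell, 4 of glycolysis rose and 1 fell, 0 of cell cycle rose and 3 fell, and 0 housekeeping genes passed in either direction, against 3.58% higher and 6.46% lower of all tested genes. ACAT2, the first enzyme of the pathway, had 1007 and 549 TPM in stimulated cells, against 470.1 and 369.5 TPM in untreated cells (change 0.83 ± 0.38, adjusted p = 0.299). INSIG1, the sterol sensor that retains SREBP factors, had 252 and 896 TPM in stimulated cells, against 129 and 94.7 TPM in untreated cells, and IDI1, an enzyme of isoprenoid synthesis, had 443 and 397 TPM in stimulated cells, against 133 and 136 TPM in untreated cells (changes 2.10 ± 0.54 and 1.64 ± 0.50, adjusted p = 0.103 and 0.166).

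Interferon-stimulated genes gave no call among 21 tested, with medians of -1.17 and -0.98 in the 2 stimulated libraries, against -0.47 and -0.11 over all tested genes. Without the first stimulated library 11 of the 21 fell and 0 rose. USP18, an enzyme that removes ISG15, had 1.51 and 1.72 TPM in stimulated cells, against 14.8 and 9.73 TPM in untreated cells (change -2.32 ± 0.52, adjusted p = 0.0637), and IRF9, a subunit of the factor ISGF3, had 10.4 and 21.7 TPM in stimulated cells, against 77.0 and 73.2 TPM in untreated cells (change -2.24 ± 0.72, adjusted p = 0.172). IFIT3, an antiviral protein, had 28.9 and 2.18 TPM in stimulated cells, against 23.1 and 18.0 TPM in untreated cells, low in the second stimulated library only. The 2 most abundant members were ISG15, with 189 and 110.5 TPM in stimulated cells, against 252 and 207 TPM in untreated cells (change -0.65 ± 0.44, adjusted p = 0.494), and IFI6, with 83.7 and 29.1 TPM in stimulated cells, against 61.6 and 55.5 TPM in untreated cells (change -0.24 ± 0.45, adjusted p = 0.853). Of 25 tested genes of the integrated stress and unfolded protein response DDIT3 rose and DDIT4 fell, with a median of -0.03, and without the first stimulated library 9 rose and 5 fell. HERPUD1, a gene of ER protein disposal, had 814 and 431 TPM in stimulated cells, against 175 and 148 TPM in untreated cells (change 1.87 ± 0.46, adjusted p = 0.0827). Of 19 tested NFAT, calcineurin and calcium feedback genes 0 rose and 0 fell (median -0.53). The calcium channel ITPR2 had 43.8 and 34.2 TPM in stimulated cells, against 57.3 and 61.6 TPM in untreated cells, lower in both stimulated libraries, and its change of -0.61 ± 0.61 did not pass (adjusted p = 0.682). Of 14 tested MHC class II and antigen loading genes HLA-DMB rose and 0 fell (median -0.21).

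**Figure D4:**
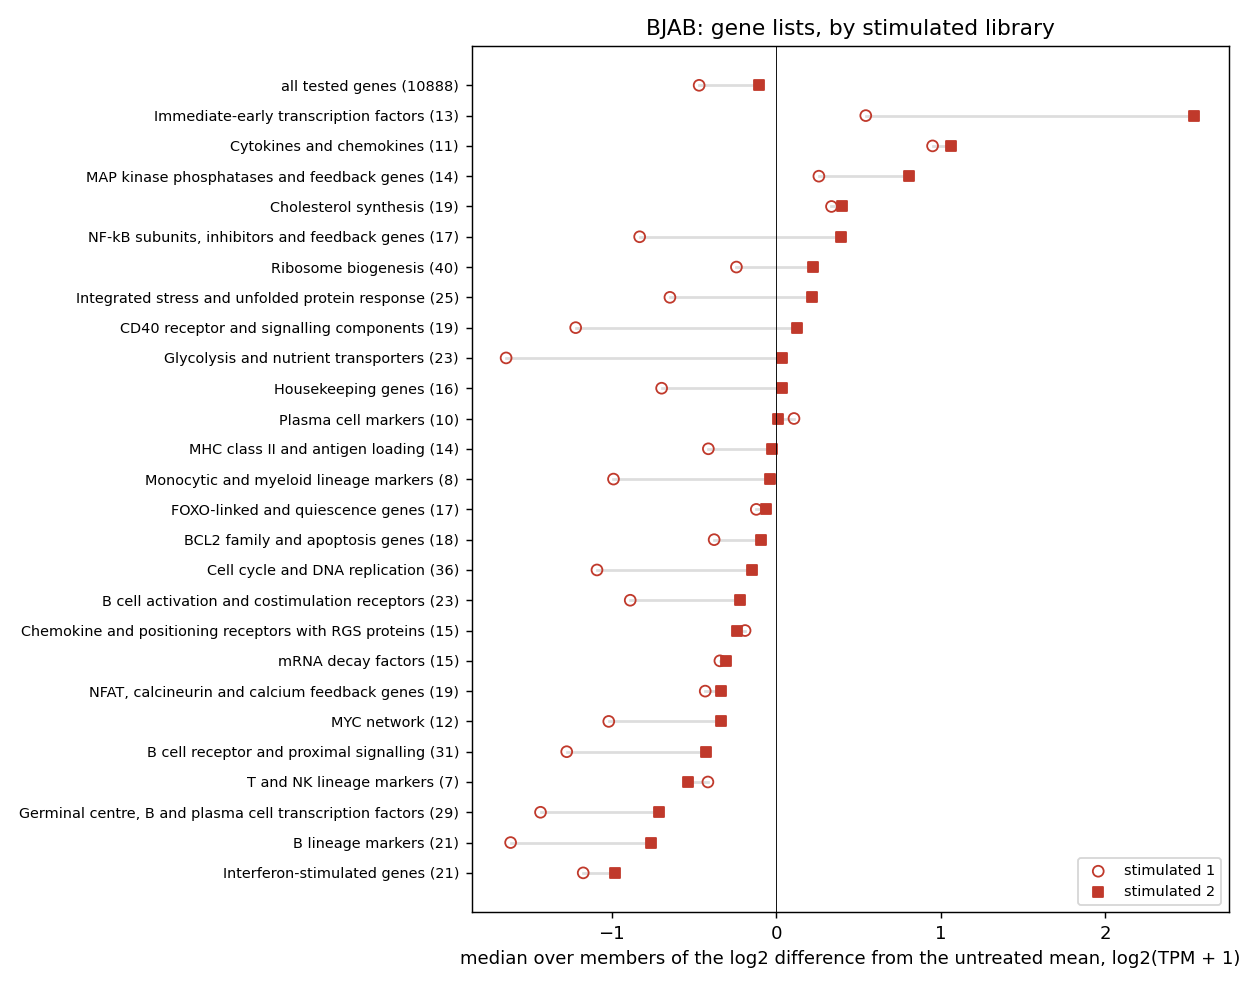
Median difference from the untreated mean, in log2(TPM + 1), over the tested members of each gene list (number in brackets) in the first (open circle) and the second (filled square) stimulated BJAB library, with all 10888 tested genes at the top. Immediate-early factors stand at 0.54 and 2.54 and interferon-stimulated genes at -1.17 and -0.98, while glycolysis genes stand at -1.64 and 0.03.

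Jurkat T cells of the same series were given an antibody to CD3 (5 µg/ml) and the phorbol ester PMA (100 ng/ml) for 4 hours. The antibody acts through the antigen receptor and PMA does not. The lines thus differ in cell type and in ligands, which cannot be told apart. The response of BJAB minus that of Jurkat passed the test for 172 of the 10888 genes (1.58%), 43 with a higher value in BJAB (0.395%) and 129 with a lower one (1.18%). The genes were filtered on their level in BJAB alone. Genes expressed only in Jurkat cells were therefore not tested, and the counts of the 2 directions are not on an equal footing. RGS1, raised in BJAB, was listed at 0 in all 4 Jurkat libraries, and so was GDF15. CCL3 had 4.89 and 6.02 TPM in stimulated and 0 and 0 TPM in untreated Jurkat cells, so that it was higher after stimulation in both lines and far higher in BJAB, with a difference in response of 5.94 ± 1.30 (adjusted p = 0.0384). C1S had 1.06 and 0.530 TPM in stimulated and 0.394 and 0.983 TPM in untreated Jurkat cells, a difference of 4.74 ± 0.82 (adjusted p = 0.0101).

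In the other direction, CYTH4 fell in BJAB and was higher in stimulated Jurkat cells, at 16.9 and 11.2 TPM against 1.21 and 0.753 TPM untreated, a difference of -7.19 ± 0.62 (adjusted p = 8.72e-05). PLAU, the urokinase plasminogen activator, had 1.43 and 9.71 TPM in stimulated cells, against 4.44 and 4.08 TPM in untreated cells of BJAB, and in Jurkat it had 121 and 139 TPM in stimulated against 0.103 and 0 TPM in untreated cells. DUSP6, given above for BJAB, had 93.5 and 79.5 TPM in stimulated and 1.64 and 0.716 TPM in untreated Jurkat cells. CDKN1A, the cell cycle inhibitor p21, had 0.874 and 6.54 TPM in stimulated cells, against 5.57 and 3.69 TPM in untreated cells of BJAB, and 196 and 183 TPM in stimulated against 2.64 and 0.922 TPM in untreated Jurkat cells. In all 3 the stimulated Jurkat libraries were far above the other 6 libraries, and the differences in response were -7.01 ± 0.72, -6.88 ± 0.69 and -6.73 ± 0.94 (adjusted p = 0.000325, 0.000295 and 0.00325, limma).

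**Figure D5:**
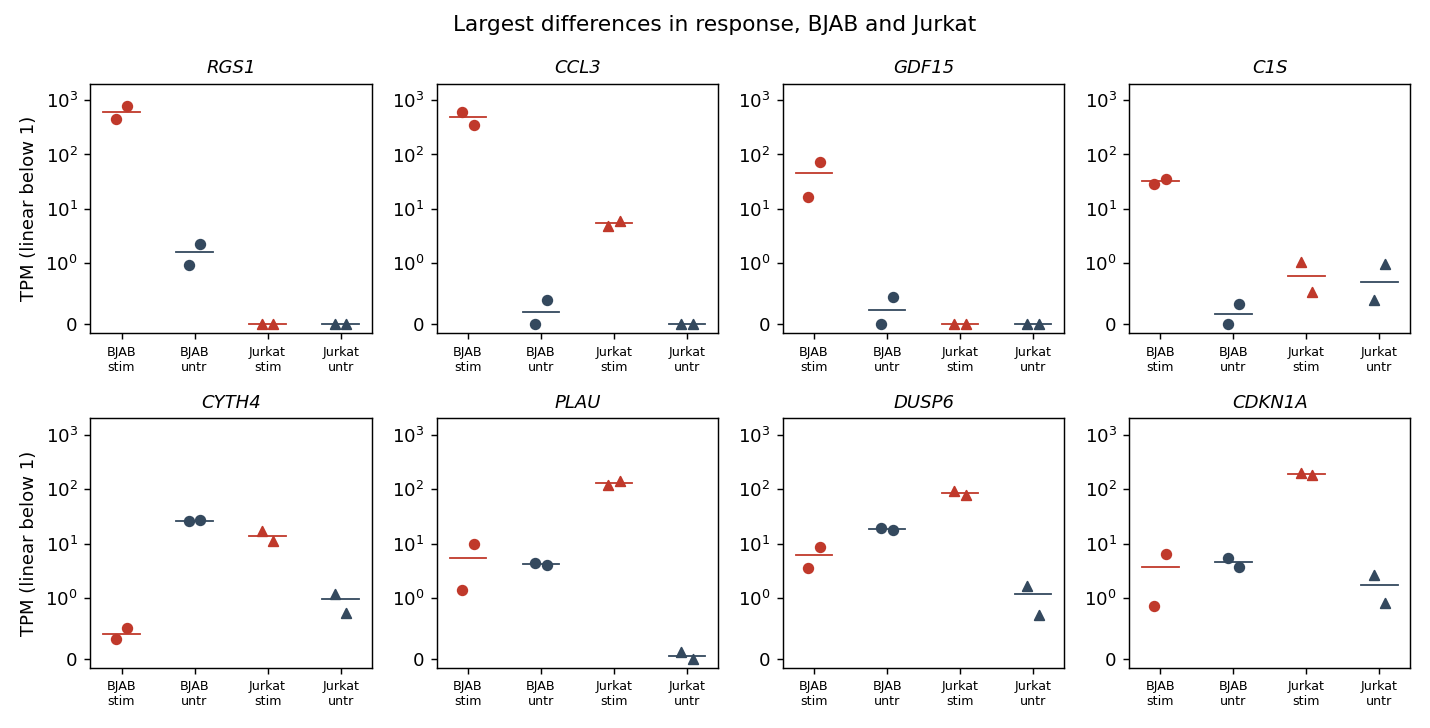
Level in TPM (linear below 1, logarithmic above) of the 8 genes with the largest differences in response, 4 each way, in the 2 libraries of stimulated and of untreated BJAB (circles) and Jurkat cells (triangles); horizontal bars are means. RGS1 and GDF15 are high in stimulated BJAB alone, and PLAU, DUSP6 and CDKN1A are highest in stimulated Jurkat cells.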

How the data were processed

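RNA of 4 human cell lines was made into SmartSeq2 libraries, a protocol that starts from oligo-dT priming and does not mark strand. Alignment to hg19 with TopHat2 is given per the submitters' processing notes, while the program and annotation behind the counts are not stated in labels or headers. The authors deposited 1 table per library with TPM values of uniquely aligned reads, which sum to 1000000 in each library. Whole reads were worked back from the smallest TPM steps for 17860 of 19092 genes above 0 (93.5%, tolerance 0.001), and these give the depth, so precision at low levels is that of a few reads.

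Levels were log2(TPM + 1). Genes with at least 1 TPM in at least 2 of the 4 BJAB libraries were fitted with limma 3.58.1 in R 4.3.3 over all 16 libraries in 8 groups, with a separate variance factor for every group and a level-dependent prior variance (8 residual degrees of freedom, two-sided, Benjamini-Hochberg adjustment over 10888 genes, threshold 0.05). Errors after a ± sign are standard errors of the log2 change. The fit was also run on simulated data that held no GC trend, so that run says nothing about the trend seen here. GC content was known for 10719 genes. Alternatives were the pseudocount, the filter, 2 other scalings, equal variance, BJAB alone, no trend, a replicate block, each BJAB library left out, a GC correction and voom on recovered reads.

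The rule for named genes took the 14 largest rises and 10 largest falls past the threshold with a mean of at least 5 TPM in the higher group, up to 4 called or else the 2 most abundant members of each list, 8 fixed genes and the 4 largest differences from Jurkat each way, and 1 gene so chosen is not reported here. Picked after their values were seen were ATF3, BCL6, BLK, CD48, CD83, CD86, CSK, CXCR5, DUSP10, EGR2, EGR3, FOS, HERPUD1, HES1, HLA-DMA, IDI1, IER2, IFIT3, IRF9, JCHAIN, JUN, LTA, LTB, MAML2, MET, MIR4513, MS4A1, NAB2, NAPSA, NFKB1, P2RY8, PRDM1, RAC2, RELB, RGS13, S1PR2, SATB1, SLAMF1, SNORD99, TNF, TNFAIP3, USP18 and the other genes named only as at 0. The members and lists were chosen with earlier results of these data known. Promoter windows are from RefSeq (GRCh38.p14) and were matched by symbol, or by a synonym where the symbol had no window. For MGAT3, which fell, the synonym led to the window of MOGAT3, a different gene. How many other windows were misplaced in this way was not checked.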

Additional observations from a re-analysis of the deposited data

Results flagged for a closer look

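The 8 genes below were singled out because their response differed between BJAB and Jurkat by the test of the difference itself, BJAB minus Jurkat on the log2(TPM + 1) scale (limma, adjusted over 10888 genes). Higher in BJAB were RGS1 at 7.86 (adjusted p = 6.14e-05), CCL3 at 5.94 (adjusted p = 0.0384), GDF15 at 4.91 (adjusted p = 0.00356) and C1S at 4.74 (adjusted p = 0.0101). Lower in BJAB were CYTH4 at -7.19 (adjusted p = 8.72e-05), PLAU at -7.01 (adjusted p = 0.000325), DUSP6 at -6.88 (adjusted p = 0.000295) and CDKN1A at -6.73 (adjusted p = 0.00325). RGS1 and GDF15 are listed at 0 in every Jurkat library and CCL3 in the untreated ones, so the sizes of these differences depend on the pseudocount. Both groups of each line had 2 libraries, the ligands differ between the lines, and only genes that passed the filter in BJAB were tested.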

How the results depend on the processing

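All 99 calls kept their direction under every alternative that tested them, but the number of calls moved with most. In all 99 both stimulated libraries lay beyond both untreated ones. Leaving out a library or changing the variance, pseudocount or filter could therefore not reverse a direction. In the order all, higher, lower, and BJAB minus Jurkat, the counts reported were 99, 52, 47 and 172. They were 11, 6, 5 and 51 with a pseudocount of 0.1, and 246, 90, 156 and 312 with one of 5. They were 171, 72, 99 and 335 with no filter (15136 genes), and 64, 35, 29 and 115 with a minimum of 5 TPM (8510 genes). Median-of-ratios scaling gave 101, 68, 33 and 153, quantile normalization 130, 76, 54 and 185, equal variance 1111, 265, 846 and 388, no trend 120, 54, 66 and 200, GC correction 123, 59, 64 and 212, and voom 68, 55, 13 and 142. BJAB alone gave 0, 0 and 0 by limma, with 1507 genes at an unadjusted p under 0.05. Leaving out 1 BJAB library gave 1 to 6092 in all, 1 to 1607 higher, 0 to 4485 lower and 3 to 4993 for the difference from Jurkat. The lone library was assumed to vary like the other BJAB group. The cause of the shifts was not tested.

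No label says what a replicate number marks. Same-numbered libraries had a correlation of deviations of 0.16 over 10888 genes and 2 pairs, and a replicate block gave 131, 55, 76 and 240.

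Genes that did not pass the test changed sign as follows. With median-of-ratios scaling DUSP14 was 0.0177, IFI6 0.0785 and TPI1 0.32. With the GC correction IFI6 was 0.11, ISG15 0.0664, NPM1 -0.27 and TPI1 0.37. TPI1 was 0.0443 with quantile normalization and 0.0241 with voom. Leaving out 1 library gave -0.33 to 0.32 for TPI1, -1.10 to 0.51 for DUSP14, -0.98 to 0.51 for IFI6 and -0.11 to 0.78 for CD40. The median of all tested genes was -0.30 as deposited, -0.03 with median-of-ratios scaling and 0.04 with quantile normalization.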

Other observations

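Several called genes were neighbours on their chromosomes. Of the 98 called genes placed by the RefSeq gene table, 10 pairs had at most 1 other tested gene between them, and 9 of the 10 pairs had the same direction. SLAMF7 and LY9 (log2 changes 6.40 and 5.38), CCL3 and CCL4, HCAR2 and HCAR3, and TIMP4 and PPARG rose as pairs, as did RGS1 with RGS2 and TFEC with MET, each with 1 tested gene between. CSK with MIR4513 and RAC2 with CYTH4 fell as pairs, as did ISOC2 with SBK3 with 1 tested gene between, and ANKRD30B and LOC644669 had opposite directions. CCL3 and CCL4 are related in sequence, HCAR2 and HCAR3 are near copies of each other, and no test of the number of pairs was made.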
